A study of Mus musculus with 13 samples.

Results

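The C-type lectins described here are 10 genes, namely Clec7a, Clec4a2, Clec4n, Clec4d, Clec4e, Clec5a, Clec10a, Clec12a, Clec2d and Clec11a. They were chosen by symbol, and all 10 were found by gene identifier among the 55487 genes counted in both tables of the series. Of these, 8 are receptors known from macrophages and other myeloid cells, and 2, Clec2d and Clec11a, are also known from stromal cells. Poly-A RNA was sequenced in 13 libraries of mouse embryonic fibroblasts (MEFs), which are connective tissue cells cultured from embryos. Primary MEFs (pMEFs) carried the label WT in 3 libraries (clones 3, 4 and 5) and Prkd3-/- in 3 libraries (clones 13, 14 and 15). Immortalized MEFs (iMEFs) were established lines, 3 of them WT (3, 4 and 5) and 4 of them Prkd3-/- (13, 13a, 14 and 15), where 13 and 13a were taken from their numbers to be separate lines of the clone 13 culture. The iMEFs came from pMEFs passaged on a modified 3T3 schedule until senescence and then kept in medium with more serum until colonies grew out, so each line is a selected outgrowth. No strain and no embryo age were given in the labels.

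C-type lectins share a fold that binds carbohydrates or, in several members, lipids and proteins. Dectin-1 (Clec7a) carries its own short activation motif, whereas dectin-2 (Clec4n), Mincle (Clec4e) and MCL (Clec4d) signal through the adaptor FcRγ, encoded by Fcer1g, and MDL-1 (Clec5a) signals mainly through DAP12, encoded by Tyrobp. These adaptors recruit the kinase Syk, and Card9 with Bcl10 and Malt1 carries the signal to NF-κB. DCIR (Clec4a2) and MICL (Clec12a) bear inhibitory motifs that recruit the phosphatases encoded by Ptpn6 and Ptpn11. MGL1 (Clec10a) is a galactose-type lectin of macrophages and dendritic cells. Clr-b (Clec2d) is a widely expressed surface ligand of an inhibitory receptor on natural killer cells. Clec11a encodes a secreted growth factor, also called osteolectin, which acts on skeletal progenitors through an integrin made of the Itga11 and Itgb1 products.

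The libraries held 55436367 to 90654323 assigned counts in the WT table and 35273408 to 100441756 in the Prkd3-/- table, with Prkd3-/- pMEF 15 the lowest and Prkd3-/- pMEF 14 the highest. Levels are given as CPM, counts scaled to a common library total, after TMM scaling over all 13 libraries, and 3 counts, taken as the floor, equalled 0.0282 to 0.0837 CPM. Prkd3 itself was still counted under the Prkd3-/- label, at 33.4 to 59.9995 CPM against 68.4 to 95.5 CPM under WT. Biological variation among libraries of a group was 5.68% in WT pMEFs, 40.9% in WT iMEFs, 32.4% in Prkd3-/- pMEFs and 49.6% in Prkd3-/- iMEFs, as edgeR's common coefficient. All 3 WT pMEF libraries contained Xist, at 43.7 to 55.3 CPM, together with 101 to 121 summed CPM of the Y-linked genes Ddx3y, Eif2s3y, Kdm5d and Uty, which cells of a single embryo do not normally both express. Among the WT lines, iMEF 3 had 175 CPM of Xist and 0.398 CPM of the Y-linked genes. Both kinds of transcript were present in iMEF 4 (160 and 59.8 CPM) and iMEF 5 (56.4 and 121 CPM). Every Prkd3-/- library had at most 0.156 CPM of Xist and at least 113 CPM of the Y-linked genes. Fibroblast markers were abundant in all libraries, since the 10 genes of that list (Col1a1 and Fn1 among them) summed to 30012 CPM in the lowest library. The 15 macrophage markers were counted as well. They summed to 1674 to 1705 CPM in WT pMEFs and 81.6 to 177 CPM in WT iMEFs. In Prkd3-/- pMEFs they summed to 193 CPM in culture 13, 2240 CPM in culture 14 and 446 CPM in culture 15. In Prkd3-/- iMEFs they summed to 29.9, 378, 21.9 and 39.7 CPM in lines 13, 13a, 14 and 15. Prkd3-/- pMEF 14 and iMEF 13a therefore stood apart from the other libraries of their groups, and results that rest on them are given with and without them. Because the samples are bulk RNA, fewer cells of a type and less RNA per cell cannot be told apart.

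On the GRCm38 assembly, 7 of the genes lay within 6.37 Mb of chromosome 6. Clec4a2 (chr6:123106428-123143999), Clec4n (chr6:123229843-123247021), Clec4d (chr6:123262111-123275265) and Clec4e (chr6:123281789-123289870) followed each other in that order, Clec4d and Clec4e only 6.5 kb apart, and of these 4 Clec4e alone was on the reverse strand. Clec2d (chr6:129180615-129186534), Clec12a (chr6:129342691-129365303) and Clec7a (chr6:129461591-129472779) followed 5890.7 kb further along, so a gene without the myeloid pattern described below sat among those with it. Clec5a was elsewhere on the same chromosome (chr6:40574894-40585821), Clec10a was on chr11:70156197-70170834 and Clec11a on chr7:44302687-44306902. No exon base of any member was shared with another annotated gene. Windows of 100 bases from the members' transcripts were unique to their gene for 8 members, while 2.14% of those of Clec4a2 were also found in Clec4a4 and 2.64% of those of Clec10a in Mgl2, so a small part of these 2 counts is uncertain.

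Start-site windows are shown for 4 myeloid members and for both stromal members, because the 2 groups separated in expression. The letters GAGGAA contain GGAA, the core bound by ETS-family factors such as PU.1 (encoded by the myeloid gene Spi1). They were searched on both strands in RefSeq windows of 250 bases before to 50 bases after each start, on GRCm38.p6. Matches stand in capitals, as GAGGAA or, where on the other strand, as TTCCTC.
Clec4d (chr6:123261857-123262156, forward strand): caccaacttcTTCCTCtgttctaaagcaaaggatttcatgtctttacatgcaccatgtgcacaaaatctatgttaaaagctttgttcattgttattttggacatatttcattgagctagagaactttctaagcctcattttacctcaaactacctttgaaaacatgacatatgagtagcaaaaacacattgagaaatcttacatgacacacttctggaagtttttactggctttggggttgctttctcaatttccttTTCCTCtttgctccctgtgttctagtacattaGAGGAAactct
Clec4e (chr6:123289822-123290121, reverse strand): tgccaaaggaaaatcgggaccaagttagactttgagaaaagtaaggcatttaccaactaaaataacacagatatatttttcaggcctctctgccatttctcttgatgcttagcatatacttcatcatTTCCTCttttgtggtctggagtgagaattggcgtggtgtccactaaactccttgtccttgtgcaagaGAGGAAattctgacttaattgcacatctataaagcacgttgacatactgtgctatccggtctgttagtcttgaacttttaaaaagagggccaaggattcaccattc
Clec5a (chr6:40585756-40586055, reverse strand): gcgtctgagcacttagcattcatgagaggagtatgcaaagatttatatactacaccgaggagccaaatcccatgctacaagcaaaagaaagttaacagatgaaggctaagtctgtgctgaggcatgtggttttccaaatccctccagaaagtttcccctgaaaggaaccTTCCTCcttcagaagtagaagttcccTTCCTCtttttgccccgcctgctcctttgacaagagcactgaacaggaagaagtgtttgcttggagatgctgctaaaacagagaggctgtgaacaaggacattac
Clec12a (chr6:129349994-129350293, forward strand): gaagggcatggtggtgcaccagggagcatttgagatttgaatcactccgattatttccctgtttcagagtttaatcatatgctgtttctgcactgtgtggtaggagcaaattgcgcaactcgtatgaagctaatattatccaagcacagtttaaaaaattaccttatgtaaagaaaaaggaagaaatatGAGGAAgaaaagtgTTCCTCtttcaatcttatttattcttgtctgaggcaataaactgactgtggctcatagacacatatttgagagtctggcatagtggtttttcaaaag
Clec2d (chr6:129180365-129180664, forward strand): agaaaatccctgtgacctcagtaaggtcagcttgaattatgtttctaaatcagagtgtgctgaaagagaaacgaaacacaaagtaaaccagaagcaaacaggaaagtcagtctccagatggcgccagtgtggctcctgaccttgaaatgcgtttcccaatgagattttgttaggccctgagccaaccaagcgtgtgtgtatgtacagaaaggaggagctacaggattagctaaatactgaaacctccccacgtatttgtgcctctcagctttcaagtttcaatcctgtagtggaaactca
Clec11a (chr7:44306910-44307209, reverse strand): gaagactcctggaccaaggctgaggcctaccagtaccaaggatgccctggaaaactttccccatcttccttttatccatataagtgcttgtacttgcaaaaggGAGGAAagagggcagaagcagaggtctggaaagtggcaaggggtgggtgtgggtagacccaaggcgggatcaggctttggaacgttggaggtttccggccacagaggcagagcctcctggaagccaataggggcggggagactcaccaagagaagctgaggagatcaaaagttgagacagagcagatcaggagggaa
The window of Clec12a lies inside the span counted for the gene. Of the 8 members that had a window, 6 held GAGGAA, against 9289 of 32851 windows in all (28.3%). Clec4d held 3 matches, and Clec4e, Clec5a and Clec12a held 2 each. Clec7a held 1, Clec11a held 1 at position -147 from the start, and Clec2d and Clec4a2 held none. The 4 myeloid windows shown are thus those with the most matches, and the windows of Clec7a and Clec4a2 are not shown. The longer GAGGAAGT, which contains GAGGAA, was in none of the members' windows and in 3.2% of all windows. TATAAA was in 4 of the 8 members and 13.6% of all windows, and TGAGTCA in 1, Clec4a2, and 5.2% of all windows. A match describes letters only, and Clec11a held GAGGAA without sharing the myeloid members' pattern. Clec4n and Clec10a had no entry.

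Levels of different genes were compared as CPM per kilobase of gene model (RPKM). The most abundant member in WT pMEFs was Clec4d, at 9.73 ± 0.36 RPKM (SD, n = 3). Clec11a followed at 6.13 ± 1.19 RPKM, then Clec12a at 4.74 ± 0.20, Clec5a at 4.52 ± 0.33 and Clec2d at 4.22 ± 0.67 RPKM. Among those 4 each gene's range overlapped that of the next, so neighbours were not ordered beyond their spread. Clec11a (lowest 4.84 RPKM) nevertheless lay wholly above Clec5a (highest 4.77 RPKM). Clec4a2 (1.26 RPKM), Clec4e (0.779), Clec4n (0.735) and Clec7a (0.339) were lower, and Clec4e and Clec4n overlapped. Clec10a was the lowest at 0.0216 RPKM. The 8 myeloid members made up 66.9% to 70.5% of the summed RPKM of the 10 genes in WT pMEFs. In WT iMEFs that share was 28.0%, 7.93% and 11.5% in lines 3, 4 and 5, where Clec11a (5.20 ± 3.31 RPKM) and Clec2d (4.004 ± 3.85 RPKM) headed the order, with overlapping ranges, and every myeloid mean was at or below 0.481 RPKM. In Prkd3-/- pMEFs 13, 14 and 15 the share was 36.4%, 74.0% and 61.3%. In Prkd3-/- iMEFs 13, 13a, 14 and 15 it was 0%, 60.7%, 0.215% and 1.21%.

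**Figure D1:**
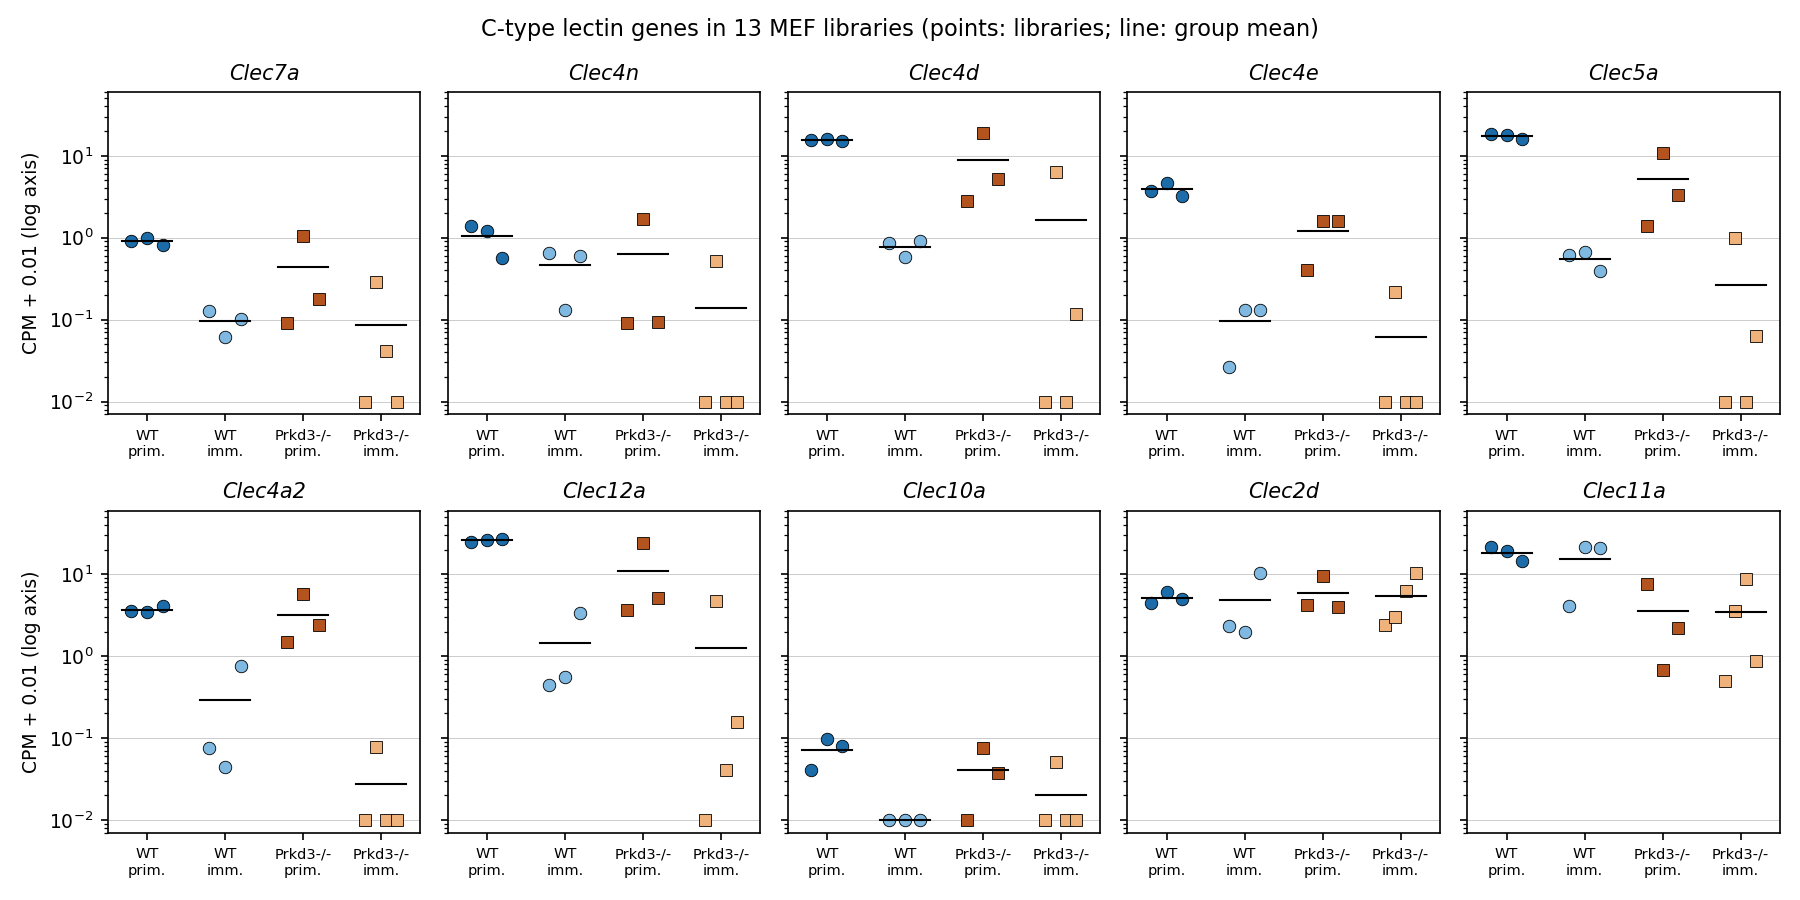
CPM + 0.01 on a log axis for each of the 10 C-type lectin genes, with 1 point a library (circles WT, squares Prkd3-/-), and a bar at the group mean. Most myeloid members lie lower in WT iMEFs than in WT pMEFs and spread widely over the Prkd3-/- libraries, whereas Clec2d lies between 1.98 and 10.3 CPM in all 13.

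The first comparison asked how the genes differed between WT iMEFs and WT pMEFs. Of the 9 members tested, 4 were called lower (edgeR quasi-likelihood test, Benjamini-Hochberg adjusted p-value under 0.01 and at least a 2-fold change) and none higher. The background in this comparison was 349 of 19836 genes called lower, 1.76%. The 4 were the activating receptors Clec5a, Clec4d, Clec4e and Clec7a. Clec10a fell short of the count filter, and a gene that passed that filter through the pMEFs alone was bound to differ, so the count over tested members is a description.

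Among the activating receptors, Clec5a had 18.3, 17.8 and 15.9 CPM in WT pMEFs 3, 4 and 5. In WT iMEFs 3, 4 and 5 it had 0.597, 0.656 and 0.384 CPM. The groups did not overlap, and Clec5a was 32.7-fold lower in iMEFs (Log2FC −5.03, SE 0.24, edgeR adjusted p-value 0.000538). Clec4d had 15.6, 16.1 and 14.98 CPM in the pMEFs and 0.846, 0.569 and 0.891 CPM in the iMEFs. It was 20.7-fold lower (Log2FC −4.37, SE 0.22, edgeR adjusted p-value 0.000546), with every line at 3.66% to 5.73% of the pMEF mean. Clec4e, which like Clec4d binds mycobacterial glycolipid, had 3.75, 4.62 and 3.24 CPM in the pMEFs. Only 0.0166, 0.121 and 0.123 CPM remained in iMEFs 3, 4 and 5, the first of these at a single count. Its Log2FC was −5.48 (SE 0.61, edgeR adjusted p-value 0.00784). The β-glucan receptor Clec7a was rarer, at 0.895, 0.976 and 0.813 CPM in the pMEFs and 0.116, 0.0518 and 0.0922 CPM in the iMEFs, again without overlap (Log2FC −3.38, SE 0.35, edgeR adjusted p-value 0.00596). Clec4n, which recognizes fungal mannans, differed from these. It had 1.38, 1.20 and 0.548 CPM in the pMEFs and 0.647, 0.121 and 0.584 CPM in the iMEFs, so that the groups overlapped, and it was not called (Log2FC −1.25, SE 0.67, edgeR adjusted p-value 0.373). Per 1000 CPM of the macrophage markers introduced above, Clec4n had 0.327 to 0.809 CPM in the pMEFs and 1.48 to 5.86 CPM in the iMEFs. The latter rest on 39, 7 and 38 counts in iMEFs 3, 4 and 5. Clec7a was not lower on this scale either, at 0.486 to 0.572 CPM in the pMEFs and 1.05, 0.634 and 0.520 CPM in those lines. Clec4d, Clec4e and Clec5a were lower on it in every iMEF than in every pMEF.

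The calls differed in how firmly they stood. Clec5a and Clec4d were called whichever WT library was left out (highest edgeR adjusted p-values 0.00814 and 0.00906). Clec7a was lost without any of the pMEF libraries 3, 4 or 5 (adjusted p-values 0.0457, 0.0499 and 0.0413). Clec4e was lost without any of those (0.0533, 0.0544 and 0.0493) and without iMEF 4 (0.0185) or iMEF 5 (0.01005). A fit with the clone number as a replicate block called 0 of the 9 members and 0 genes, with adjusted p-values of 0.0184 for Clec5a, 0.0230 for Clec4d, 0.0643 for Clec4e and 0.0725 for Clec7a.

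The inhibitory receptors were lower as well, but more unevenly. Clec12a, the highest myeloid member by CPM, had 25.0, 26.4 and 27.2 CPM in WT pMEFs. In iMEFs 3 and 4 it had 0.431 and 0.552 CPM, and in iMEF 5 it had 3.36 CPM. Its groups did not overlap, but it was not called (Log2FC −4.20, SE 0.88, edgeR adjusted p-value 0.0584). Without iMEF 5 it was called (Log2FC −5.78, edgeR adjusted p-value 0.000379). Over all genes, the number called in either direction also rose without iMEF 5, from 361 to 743. Clec4a2 had 3.56, 3.42 and 4.08 CPM in the pMEFs and 0.0664, 0.0345 and 0.753 CPM in the iMEFs, with iMEF 5 again the highest. It was not called with all lines (Log2FC −3.70, SE 1.08, edgeR adjusted p-value 0.139) and was called without iMEF 5 (Log2FC −6.18, edgeR adjusted p-value 0.00114). DESeq2, which called 5.39% of genes lower, called both at adjusted p-values of 4.49e-07 for Clec12a and 0.00163 for Clec4a2. That line also had the highest macrophage marker sum of the 3, at 177 CPM against 110 and 81.6 CPM in lines 3 and 4, and the part of macrophage RNA in the difference was not tested. Clec10a was close to undetected, with 2, 8 and 4 counts in the pMEFs and none in the iMEFs, and no fold is given at that depth. In all, 6 of the 7 tested myeloid members lay lower in every iMEF than in every pMEF, against 15.7% of all tested genes. Of these, Clec7a, Clec4e and Clec4a2 passed the count filter through the pMEFs alone. Their separation was thus largely built in, and this count too is a description.

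**Figure D2:**
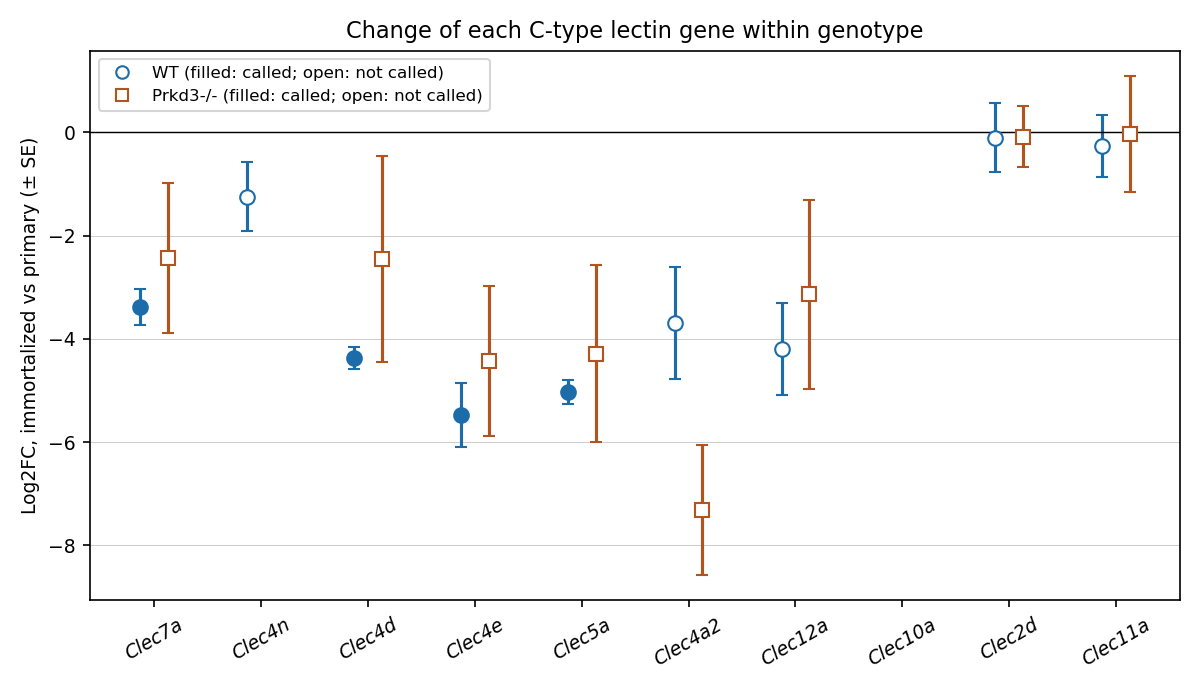
Log2FC of iMEFs against pMEFs within each genotype with its SE (edgeR), for the members that passed the count filter, where filled symbols were called and open symbols were not. The WT estimates of Clec5a, Clec4d, Clec4e and Clec7a are filled, and no Prkd3-/- estimate is.

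Clec2d and Clec11a did not share this pattern. Clec11a had 21.4, 19.0 and 14.4 CPM in WT pMEFs 3, 4 and 5, and 4.13, 21.7 and 20.7 CPM in iMEFs 3, 4 and 5. Line 3 was low, and lines 4 and 5 were at 119% and 113% of the pMEF mean. The Log2FC was −0.27 (SE 0.60, edgeR adjusted p-value 0.846), and leaving out line 3 turned its sign (Log2FC 0.19). Clec2d had 4.43, 6.01 and 4.92 CPM in the pMEFs. It had 2.34 and 1.98 CPM in iMEFs 3 and 4 and 10.2 CPM in iMEF 5, so that the lines lay on either side of the pMEFs. Its Log2FC was −0.10 (SE 0.67, edgeR adjusted p-value 0.953), and without iMEF 5 it was −1.29 (edgeR adjusted p-value 0.0196). Of the integrin subunits that form the receptor for the Clec11a product, Itga11 had 162 to 258 CPM in WT pMEFs and 381 to 749 CPM in WT iMEFs (Log2FC 1.17, SE 0.33, edgeR adjusted p-value 0.124), and Itgb1 had a Log2FC of 0.04 (SE 0.28, edgeR adjusted p-value 0.955).

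**Figure D3:**
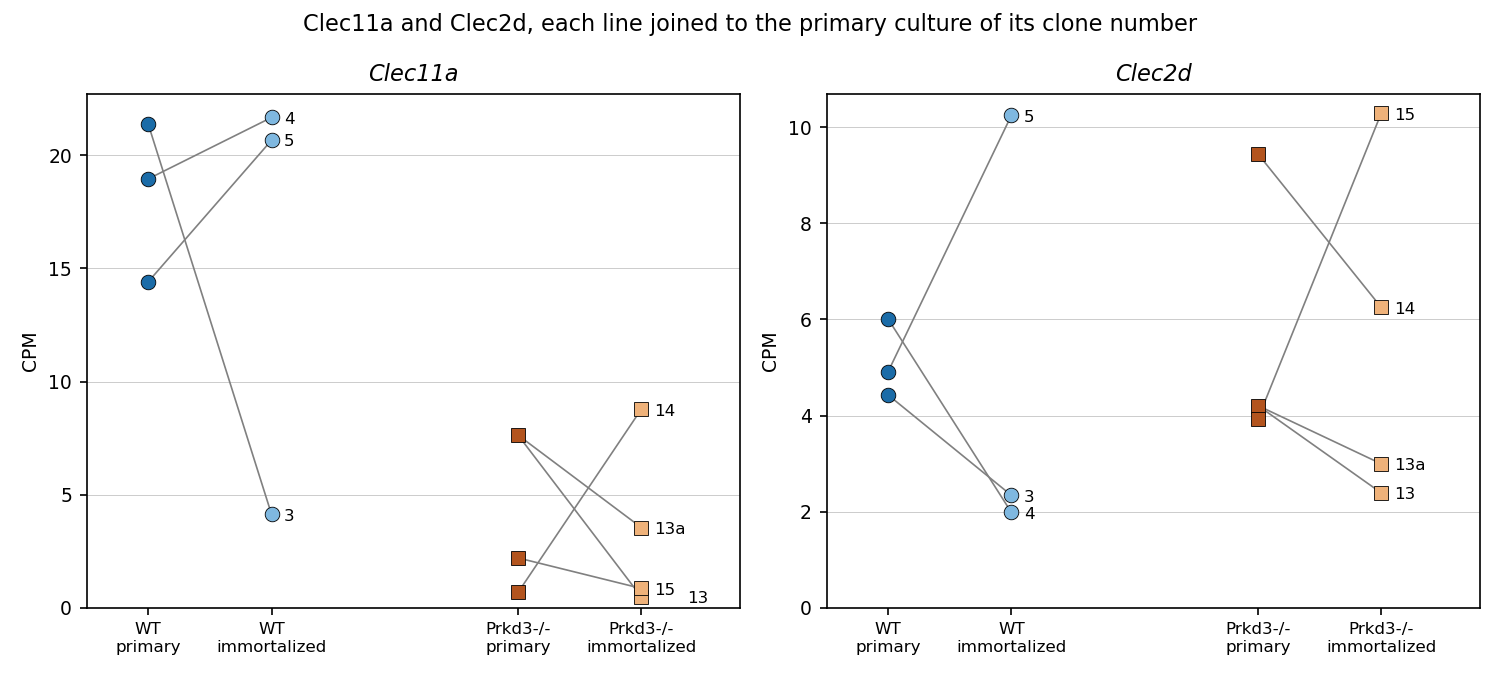
CPM of Clec11a and Clec2d on linear axes, each iMEF line joined to the pMEF library of the same clone number (lines 13 and 13a to culture 13). Lines of a genotype move in opposite directions, as for Clec11a in WT lines 3 (21.4 to 4.13 CPM) and 5 (14.4 to 20.7 CPM).

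The same comparison was made under the Prkd3-/- label. None of the 8 members tested was called, and neither was any of 20298 genes (0% called), although 1331 genes and 3 members had an unadjusted edgeR p-value under 0.05. DESeq2 called 190 genes, 0.781%, and 1 member, Clec4a2. The spread among the libraries was wide in both states. Clec4d had 2.82, 18.9 and 5.19 CPM in pMEFs 13, 14 and 15. In the iMEFs it had 0, 6.41, 0 and 0.107 CPM in lines 13, 13a, 14 and 15. Culture 14 and line 13a stood above the rest of their groups, and the ranges overlapped through line 13a alone (Log2FC −2.45, SE 1.99, edgeR adjusted p-value 0.855). Clec5a had 1.36, 10.7 and 3.29 CPM in the pMEFs and 0, 0.976, 0 and 0.0534 CPM in the iMEFs. Its groups did not overlap, and it was not called (Log2FC −4.29, SE 1.71, edgeR adjusted p-value 0.730). Clec4e had 0.392, 1.59 and 1.59 CPM in the pMEFs and was counted in a single line, 13a, at 0.206 CPM (Log2FC −4.43, SE 1.46, edgeR adjusted p-value 0.667). Clec7a had 0.0807, 1.03 and 0.167 CPM in the pMEFs and 0, 0.275, 0.0311 and 0 CPM in the lines, with overlap (Log2FC −2.43, SE 1.45, edgeR adjusted p-value 0.831).

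Of the inhibitory receptors, Clec4a2 had the largest estimate. It had 1.48, 5.71 and 2.40 CPM in Prkd3-/- pMEFs 13, 14 and 15, and it was counted in line 13a alone, at 0.0687 CPM. Its Log2FC was −7.32 (SE 1.27, edgeR adjusted p-value 0.296), a size that depends on how zeros are handled. Clec12a had 3.68, 24.1 and 5.13 CPM in the pMEFs and 0, 4.76, 0.0311 and 0.147 CPM in the lines, where line 13a lay above culture 13 (Log2FC −3.14, SE 1.83, edgeR adjusted p-value 0.831). Clec4n (0.0807, 1.70 and 0.0837 CPM in the pMEFs, 0.509 CPM in line 13a and 0 in the others) and Clec10a (at most 0.0657 CPM) did not pass the filter. Clec4a2, Clec4e and Clec5a were thus the members whose iMEFs all lay below their pMEFs, 3 of the 6 myeloid members tested. Over all tested genes that share was 5.53%. These 3 genes passed the count filter through the pMEFs alone and were likely to separate, so their count is a description. The sizes of these estimates rested on the libraries that stood apart. Without line 13a the Log2FC was −7.79 for Clec4d, −7.90 for Clec5a and −7.41 for Clec12a. It was −9.39 for Clec4e and −10.81 for Clec4a2, for which the remaining lines were all at 0. EdgeR adjusted p-values in that fit were 0.151 to 0.176 for these 5 members, and Clec7a was not tested. Without culture 14 the Log2FC was −1.30 for Clec4d, −3.16 for Clec5a, −1.84 for Clec12a, −0.61 for Clec7a, −4.17 for Clec4e and −6.60 for Clec4a2, with edgeR adjusted p-values of 0.488 for Clec4a2 and 0.998 for the other 5. With culture 14 and line 13a both left out, which was chosen after the data were seen, none of the 7 members then tested was called. The Log2FC was then −6.66 for Clec4d, −6.77 for Clec5a, −6.12 for Clec12a, −8.97 for Clec4e and −9.94 for Clec4a2, with edgeR adjusted p-values of 0.245 to 0.351.

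Lines 13 and 13a gave the widest contrast, although by their numbers both came from the clone 13 culture. In line 13 no count was assigned to any of the 8 myeloid members, where 3 counts, the limit that a count of 0 allows, equalled 0.0556 CPM a gene. In line 13a all 8 were counted, with 963 counts in all, against 4 in line 14 and 23 in line 15. Line 13a also exceeded culture 13, the pMEF library of its clone number, for Clec4d (6.41 against 2.82 CPM), Clec12a (4.76 against 3.68 CPM), Clec4n (0.509 against 0.0807 CPM) and Clec7a (0.275 against 0.0807 CPM). It lay below culture 13 for Clec5a (71.7%), Clec4e (52.6%) and Clec4a2 (4.66%). The macrophage markers of line 13a, at 378 CPM, were likewise above the 193 CPM of culture 13, with Lyz2 at 162 CPM in line 13a and 0.0556 CPM in line 13. Over all tested genes, however, the deviations of line 13a from its group mean correlated at -0.283 with those of culture 13. With those of culture 14 they correlated at 0.336. The origin of line 13a was not tested, so these differences are not shown to be a rise within clone 13.

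Clec11a and Clec2d again differed between lines without a common direction. Clec11a had 7.63, 0.676 and 2.20 CPM in Prkd3-/- pMEFs 13, 14 and 15. It had 0.482, 3.55, 8.77 and 0.855 CPM in lines 13, 13a, 14 and 15, so that it was lowest in the culture, 14, in which the myeloid members were highest (Log2FC −0.03, SE 1.12, edgeR adjusted p-value 0.999). Clec2d had 4.21, 9.45 and 3.93 CPM in the pMEFs and 2.39, 3.00, 6.25 and 10.3 CPM in the lines (Log2FC −0.08, SE 0.59, edgeR adjusted p-value 0.988). Clec2d was therefore at 1.98 CPM or more in each of the 13 libraries, including line 13, which lacked all of the myeloid members.

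The myeloid members were high and low in largely the same libraries as the macrophage markers. Their summed CPM was 66.9 to 70.6 in WT pMEFs and 2.72, 2.10 and 6.19 in WT iMEFs 3, 4 and 5. It was 9.89, 63.8 and 17.9 in Prkd3-/- pMEFs 13, 14 and 15, and 0, 13.2, 0.0622 and 0.307 in Prkd3-/- iMEFs 13, 13a, 14 and 15. Set against the 15 macrophage markers, the sum was 39.9 to 41.4 CPM per 1000 marker CPM in WT pMEFs, and 51.2, 28.5 and 40.0 in Prkd3-/- pMEFs 13, 14 and 15. In WT iMEFs it was 24.6, 25.8 and 34.9, and in line 13a it was 35.0. In lines 13, 14 and 15, where the markers were sparse, it was 0, 2.84 and 7.74, and Csf1r was still counted there at 15.8, 8.28 and 10.8 CPM. Of the exon bases of Csf1r, 15.1% are shared with Hmgxb3 on the opposite strand. How far reads of Hmgxb3 add to Csf1r, and so to the marker sums where these are low, was not tested. All 15 macrophage markers had a negative Log2FC in both genotypes. In WT edgeR called 8 of the 15 lower and DESeq2 called 12, against 1.76% and 5.39% of all genes. Under the Prkd3-/- label edgeR called none and DESeq2 called 1, Cx3cr1, where it called 0.781% of all genes. The markers of granulocytes and mast cells summed to at most 1.37 CPM in any library, and those of lymphocytes to at most 0.171 CPM except in WT iMEF 4, where Cd79a alone had 3.50 CPM. The dendritic markers summed to 2.47 to 13.01 CPM with Zbtb46 the highest, and Cd209a and Siglech were at 0 in all libraries. Endothelial markers summed to 11.5 to 16.2 CPM in WT pMEFs and 0.382 to 2.01 CPM in WT iMEFs. Of the 4 tested edgeR called Tek lower, while DESeq2 called 3 lower, against 1.76% and 5.39% of all genes. The part of these cells in the changes was not tested.

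**Figure D4:**
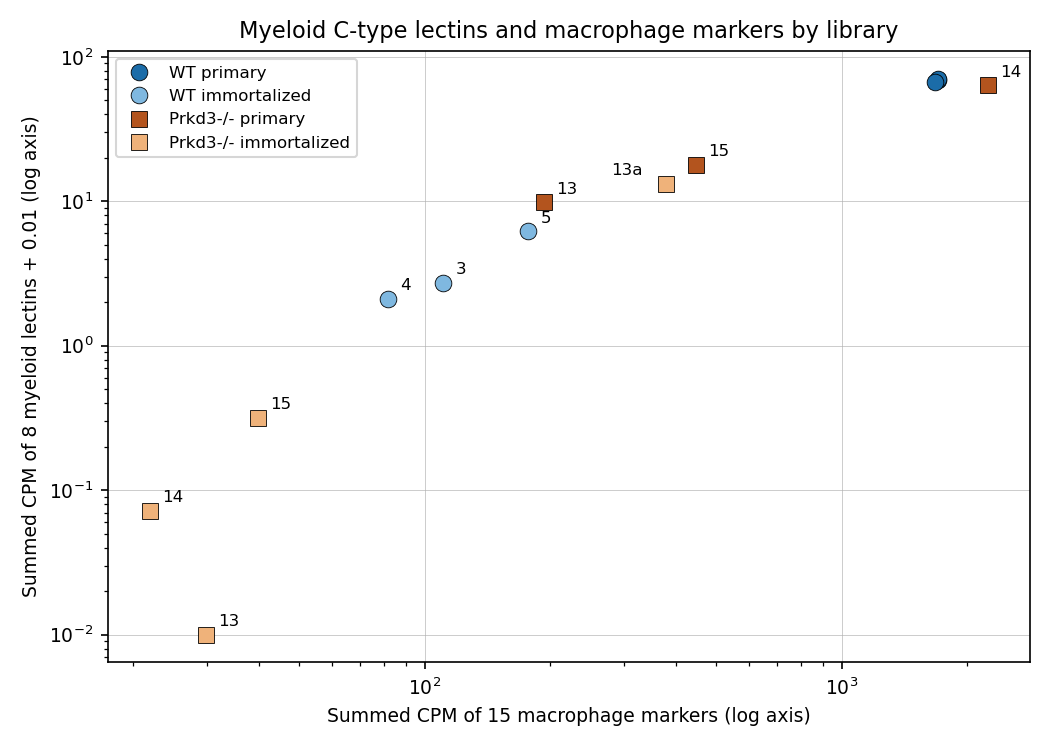
Summed CPM of the 8 myeloid lectins (+ 0.01) against summed CPM of the 15 macrophage markers, both on log axes, with 1 point a library and clone numbers beside all but the WT pMEFs. Prkd3-/- pMEF 14 (2240 and 63.8 CPM) lies with the WT pMEFs, and line 13a (378 and 13.2 CPM) lies with Prkd3-/- pMEFs 13 and 15.

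The proportions among the myeloid members were not the same in every library. Clec5a had 1.06 to 1.17 times the CPM of Clec4d in WT pMEFs, 0.482, 0.569 and 0.634 times in Prkd3-/- pMEFs 13, 14 and 15, and 0.152 times in line 13a. The pMEF ranges of the 2 labels did not overlap for this ratio, for which no test was run. Clec4d made up 43.6% to 44.2% of the summed myeloid RPKM in WT pMEFs, 51.1% to 51.7% in Prkd3-/- pMEFs and 70.8% in line 13a. Clec4a2 made up 5.11% to 6.58% in WT pMEFs and 8.55% to 14.6% in Prkd3-/- pMEFs, but 0.415% in line 13a. In WT iMEFs 3, 4 and 5, Clec4n made up 35.4%, 11.1% and 20.6%, against 1.82% to 4.35% in WT pMEFs.

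The genotype comparisons used the WT and Prkd3-/- tables side by side, so that genotype and any difference between the 2 tables cannot be told apart. In pMEFs, none of the 9 members tested was called between Prkd3-/- and WT, where 156 of 20403 genes were called (0.765%). All 7 tested myeloid members had a negative Log2FC, from −1.75 for Clec5a (SE 0.70, edgeR adjusted p-value 0.195) and −1.71 for Clec4e (SE 0.52, edgeR adjusted p-value 0.113) to −0.20 for Clec4a2 (SE 0.48, edgeR adjusted p-value 0.835). DESeq2 called Clec4e (adjusted p-value 0.00526) and no other member, with 3.71% of genes called. In pMEF 14 the summed macrophage markers exceeded those of every WT pMEF, although Csf1r, Cx3cr1, Laptm5 and Cd14 were each lower there than in every WT pMEF. Without pMEF 14, 5 members were called lower, namely Clec12a (Log2FC −2.61), Clec7a (−3.02), Clec4d (−2.01), Clec4n (−3.67) and Clec5a (−3.02), and 1456 genes were called (7.13%). Clec11a was lower in all 3 Prkd3-/- pMEFs than in all 3 WT pMEFs (7.63, 0.676 and 2.20 against 21.4, 19.0 and 14.4 CPM) and was not called (Log2FC −2.37, SE 0.81, edgeR adjusted p-value 0.143). Clec4e, Clec5a and Clec12a also lay below without overlap, against 17.3% of all tested genes. In iMEFs, none of the 6 members tested was called, where 8 of 19683 genes were (0.0406%), and every member's ranges overlapped.

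The difference of the change between the genotypes was tested in 1 model over all 13 libraries. None of the 9 members and none of 21197 genes passed an edgeR adjusted p-value of 0.05 (0% called), while 841 genes had an unadjusted edgeR p-value under 0.05, and DESeq2 passed 37 genes (0.123%) and no member. Clec4a2 was the member with the smallest unadjusted p-value, and its estimate was −3.59 (SE 1.63, edgeR adjusted p-value 1.00). For Clec4d the estimate was 1.93 with an SE of 2.29, and it was −3.37 without line 13a, so that 1 line decided its sign.

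The partners of these receptors were examined from a list of 14 signalling genes and 3 phosphatases. In WT, edgeR called 4 of the 14 lower and none higher, and DESeq2 called 7 lower, against 1.76% and 5.39% of all genes. The list's median Log2FC was −2.22 against 0.04 over all tested genes. Those called by edgeR were Btk (Log2FC −5.06, SE 0.52), a kinase downstream of Syk, the DAP12 gene Tyrobp (−4.65, SE 0.43), the adaptor gene Card9 (−4.23, SE 0.35) and the exchange-factor gene Vav3 (−3.71, SE 0.31), with edgeR adjusted p-values of 0.00620, 0.00442, 0.00290 and 0.00311. Tyrobp had 37.6, 37.9 and 39.9 CPM in WT pMEFs and 1.23, 0.932 and 2.54 CPM in WT iMEFs. The FcRγ gene Fcer1g, the adaptor of Clec4d, Clec4e and Clec4n, had 49.4 to 51.1 CPM and 1.28 to 5.61 CPM, and was called by DESeq2 but not by edgeR (Log2FC −4.16, SE 0.64, edgeR adjusted p-value 0.0217). By contrast, the widely expressed partners Syk (Log2FC −0.18, SE 0.34), Bcl10 (0.05, SE 0.21), Malt1 (0.07, SE 0.16) and Src (0.29, SE 0.22) had small estimates and overlapping ranges. Syk had 17.3 to 19.1 CPM in WT pMEFs and 8.73 to 22.7 CPM in WT iMEFs. Among the phosphatases, Ptpn6, which encodes SHP-1, was called lower (Log2FC −4.30, SE 0.20, edgeR adjusted p-value 0.000471), as was the lipid phosphatase gene Inpp5d (−4.35, SE 0.43, edgeR adjusted p-value 0.00541). Ptpn11, which encodes the ubiquitous SHP-2, had a Log2FC of 0.22 (SE 0.09, edgeR adjusted p-value 0.265). Under the Prkd3-/- label none of the 13 signalling genes and 3 phosphatases tested was called by edgeR or DESeq2.

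**Figure D5:**
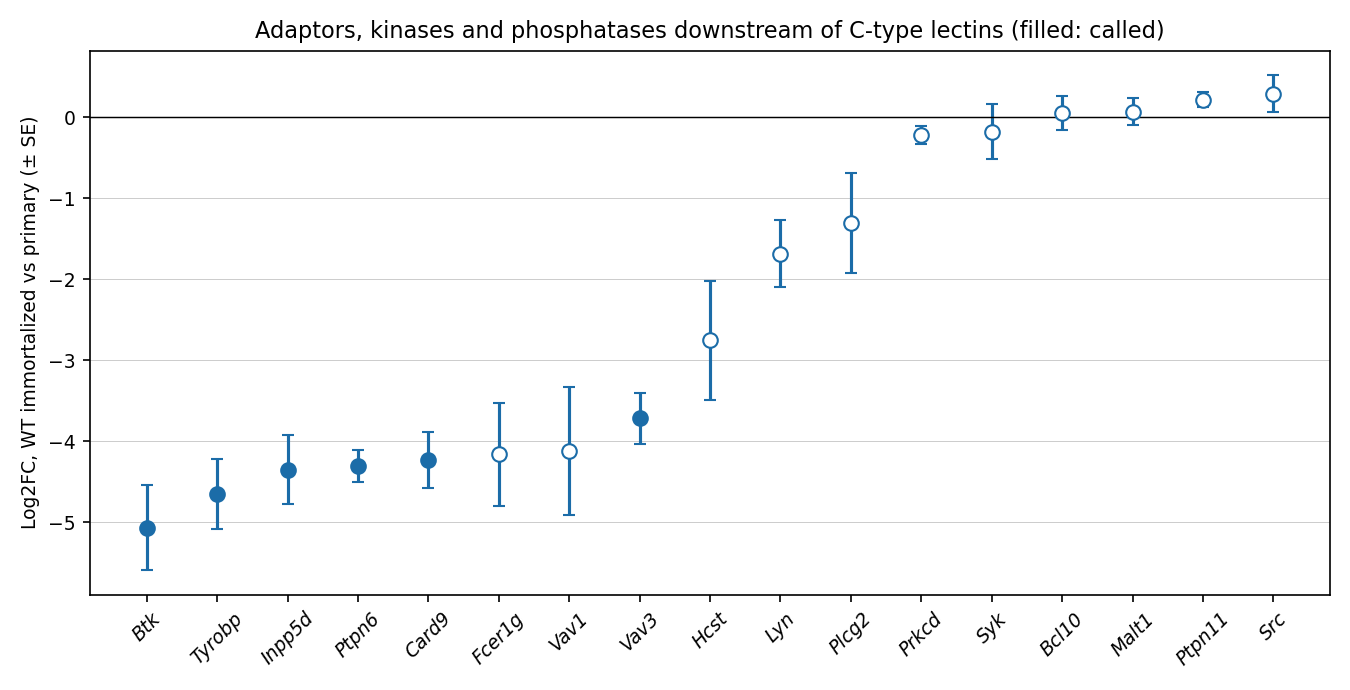
Log2FC of WT iMEFs against WT pMEFs with its SE (edgeR) for the 14 signalling genes and 3 phosphatases, ordered by size, with filled circles for called genes. Btk, Tyrobp, Inpp5d, Ptpn6, Card9 and Vav3 are filled, and Syk, Bcl10, Malt1, Src and Ptpn11 lie near 0.

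Of 14 genes known as outputs of C-type lectin signalling, 10 were tested in WT, and edgeR called none. DESeq2 called Tnf lower (adjusted p-value 0.000180) and Il6 higher (adjusted p-value 0.00359), where it called 0.545% of genes higher. Their median Log2FC was 0.72, with 6 positive and 4 negative estimates, from −3.12 for Tnf (SE 0.77, edgeR adjusted p-value 0.0925) to 6.36 for Il6 (SE 2.09, edgeR adjusted p-value 0.175). The Il6 estimate rested on iMEF 5, at 29.3 CPM against 0.0829 and 1.95 CPM in lines 3 and 4. Between the pMEFs of the 2 labels, edgeR called Egr2 higher under Prkd3-/- (Log2FC 1.85, SE 0.20, edgeR adjusted p-value 0.00875), and DESeq2 called Ptgs2 as well.

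Among 22 other lectins of myeloid cells, 9 were tested in WT and edgeR called none, with a median Log2FC of −1.06. DESeq2, which called 5.39% of all genes lower, called 2 lower, Mrc1 (adjusted p-value 2.69e-17) and Clec1a (adjusted p-value 4.82e-05). Of the 9, 5 lay lower in every iMEF than in every pMEF, against 15.7% of all tested genes. Another 1 lay higher in every iMEF, as did 3291 of the 19836 genes tested. Genes that passed the count filter through the pMEFs alone, such as Clec1a, were likely to lie lower, so the count of lower genes is a description. The mannose receptor gene Mrc1 had 34.5, 33.1 and 23.2 CPM in WT pMEFs and 1.21, 0.414 and 0.154 CPM in WT iMEFs (Log2FC −5.72, SE 0.77, edgeR adjusted p-value 0.0147). In Prkd3-/- pMEFs 13, 14 and 15 Mrc1 had 2.02, 82.2 and 5.47 CPM, in the same order as the myeloid members above. Cd72, at 79.1 to 82.7 CPM in WT pMEFs, still had 37.0 to 49.9 CPM in WT iMEFs (Log2FC −0.94, SE 0.12, edgeR adjusted p-value 0.0118). However, 41.6% of the exon bases of Cd72 are shared with Tesk1 on the opposite strand. Strand was not used in the WT counts, so part of the Cd72 level may be reads of Tesk1, which was not tested. Ly75 and Cd302, the other abundant genes of the list, had positive estimates that were not called (Log2FC 0.73, SE 0.28, and 0.78, SE 0.50). Cd209a, Cd209b and Cd209d were at 0 in all 13 libraries. Of 22 other lectins of stromal, endothelial and matrix type, 17 were tested. DESeq2 called 3 lower, against 5.39% of all genes. EdgeR, which called 1.76% of all genes lower, called 1, Cd93 (Log2FC −3.51, SE 0.37, edgeR adjusted p-value 0.00646), which marks endothelial cells and myeloid cells. The median of that list was −0.23. Cd248 and Mrc2, both fibroblast lectins, at 466 ± 18.0 and 450 ± 20.3 CPM in WT pMEFs (SD, n = 3), had Log2FC −0.07 (SE 0.18) and 0.10 (SE 0.27). Between the pMEFs of the 2 labels, edgeR called Clec3b, the tetranectin gene, lower under Prkd3-/- (Log2FC −6.43, SE 0.58, edgeR adjusted p-value 0.00449), and likewise the matrix gene Frem1 (−2.52, SE 0.15, edgeR adjusted p-value 0.00102), while DESeq2 called 7 of this list lower. In that comparison edgeR called 0.765% of all genes and DESeq2 called 3.71%, in either direction.

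The genes whose profiles over the 13 libraries were nearest to a member were found by the root mean square difference of centred log2 CPM, among 21196 genes. For Clec4d, the most abundant myeloid member, they were Myo1f (0.455), Tlr13 (0.485) and Lcp1 (0.543), where the median over genes was 3.55. For Clec11a they were Gm48814 (0.746), Shank1 (0.768) and Mettl7a3 (0.783), with a median of 1.98. For Clec2d they were Snord37 (0.453), Actn3 (0.458) and Herc6 (0.464), with a median of 0.924.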

How the data were processed

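Poly-A RNA of 13 MEF libraries was sequenced by the authors as paired reads. Per the labels and the file headers, reads were aligned with STAR 2.7.10a to mm10 (GRCm38), and the deposited raw counts per gene were made with featureCounts (Subread 2.0.6), a pair being assigned to every gene it overlapped and strand not being used in the WT table. The Prkd3-/- table gives no command line. Here, edgeR 4.0.16 (R 4.3.3) was run on each pair of groups (TMM, filterByExpr, robust quasi-likelihood test, Benjamini-Hochberg adjustment over all tested genes) and once on all 13 libraries for the difference between genotypes. A gene was called at an adjusted p-value under 0.01 and an absolute Log2FC of at least 1 (0.05 and no size limit for the difference). DESeq2 1.42.0 and limma 3.58.1 (voom, 1 weight a group) served as alternatives. RPKM was CPM divided by the deposited gene length.

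The authors also used DESeq2. Named genes were the 10 members, list genes that were called or among the 8 highest of their list, the 3 nearest profiles, and a few further list genes named as examples after their values were seen. Members and lists were chosen with earlier results of these data known. The study's clone numbers pair each line with its culture, while the deviations of same-numbered WT libraries correlated at only -0.0392 to 0.0187 (-0.283 to 0.142 under Prkd3-/-), and whether the libraries came from separate embryos throughout is doubtful for WT. P-values therefore measure the spread between these libraries. On simulated counts of the WT design edgeR recovered all of the changed genes. That simulation gave both groups the same spread and changed only well-counted genes. In the data the spread was 5.68% in WT pMEFs and 40.9% in WT iMEFs. It is therefore a check of the code and does not tell how many real changes were missed.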

Additional observations from a re-analysis of the deposited data

Results flagged for a closer look

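Among the 4 Prkd3-/- iMEF lines, line 13a stood above the other 3 beyond the 95% critical value of Dixon's gap test for Clec4d, Clec12a, Clec5a and Clec7a. Line 13a had 6.41 CPM of Clec4d where the next line had 0.107 CPM, 4.76 CPM of Clec12a where the next had 0.147 CPM, and 0.976 CPM of Clec5a where the next had 0.0534 CPM. It had 0.275 CPM of Clec7a where the next had 0.0311 CPM. Clec4n (0.509 CPM), Clec4e (0.206 CPM), Clec4a2 (0.0687 CPM) and Clec10a (0.0412 CPM) were counted in line 13a and in no other line of the group. With the other lines at 0, the gap ratio is 1 whatever the level in line 13a, so for these 4 genes the check carries no weight. For Clec4d, Clec12a, Clec5a and Clec7a the other lines had at most 11 counts. Their ratios were thus also close to 1 for most levels in line 13a, and the check carries little weight there. Clec10a in line 13a was at 3 counts, and Clec4a2 at 5 counts was just above the 0.0556 CPM that a count of 0 allows in line 13. The summed CPM of the 8 members was 13.2 in line 13a and at most 0.307 elsewhere in the group. The 15 macrophage markers, at 378 CPM against at most 39.7 CPM, stood apart in the same line. Chance flags about 1 in 20 groups, and these genes are not independent of each other. Clec2d and Clec11a did not pass the critical value. The groups of 3 libraries were not put to this check, Prkd3-/- pMEFs with the high culture 14 among them, and no member's change differed between the genotypes in the test of that difference.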

How the results depend on the processing

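Of 582 alternative values for single members, 504 kept direction and side of the threshold. In WT, members called were 6 by DESeq2, 3 by limma, 0 with the replicate block and 2 to 5 with a library left out (2 without pMEF 3, 4 or 5), and genes called were 1361 by DESeq2, 198 by limma, 868 at an adjusted p-value under 0.05, 0 with the replicate block and 48 to 743 with a library left out (743 without iMEF 5). Under the Prkd3-/- label DESeq2 called 1 member and 190 genes, and every other setting 0. For the difference between genotypes, genes called were 37 by DESeq2 and 0 to 2 with a library left out. For Prkd3-/- against WT pMEFs, members called were 1 by DESeq2 and 0 to 5 with a library left out, and genes called were 836 by DESeq2, 335 with no filter, 607 at an adjusted p-value under 0.05 and 2 to 1456 with a library left out. For iMEFs, genes called were 178 by DESeq2, 5 by limma, 13 at an adjusted p-value under 0.05 and 0 to 10 with a library left out. The replicate block changed no other call of a member. Sign changes were limited to values that were not called. With lines 13 and 13a summed, the Prkd3-/- Log2FC was 0.13 for Clec2d and 0.18 for Clec11a, and with pMEF 14 and line 13a both left out it was 0.63 for Clec2d. For the difference between genotypes, Clec2d was −0.023 with no filter, limma gave −1.78 (Clec4d), −1.23 (Clec5a) and −1.05 (Clec12a), the replicate block gave −0.74 (Clec4d), −0.23 (Clec5a) and −0.068 (Clec11a), and leaving out pMEF 14 and line 13a gave −2.23 (Clec4d), −3.52 (Clec4e), −1.69 (Clec5a), −1.87 (Clec12a) and −0.28 (Clec11a). For iMEFs limma gave −2.96 for Clec4d. With a library left out, the WT Log2FC ranged from −1.29 to 0.27 for Clec2d and −0.58 to 0.19 for Clec11a, and the Prkd3-/- Log2FC from −0.58 to 0.43 and from −1.10 to 1.25. The difference between genotypes ranged from −1.76 to 2.79 (Clec7a), −7.18 to 1.90 (Clec4n), −3.37 to 3.07 (Clec4d), −3.86 to 1.49 (Clec4e), −2.82 to 1.89 (Clec5a), −3.16 to 2.63 (Clec12a), −0.47 to 1.19 (Clec2d) and −0.83 to 1.54 (Clec11a). Prkd3-/- against WT pMEFs ranged from −0.97 to 0.16 (Clec4a2) and −0.33 to 0.40 (Clec2d), and iMEFs from −4.22 to 1.53 (Clec4d), −4.48 to 1.35 (Clec12a) and −0.29 to 1.37 (Clec2d). The cause of these changes was not tested. Depth limits Clec10a, which had at most 8 counts in a library, and the zeros of the Prkd3-/- lines.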

Other observations

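Among lectins outside the 10 members, Cd209f and Olr1 each had their highest level in an iMEF line. Cd209f, a gene of the DC-SIGN family, had 17.5 CPM in WT iMEF 5 and was at 0 in 11 of the other libraries. Olr1, the receptor for oxidized lipoprotein, had 24.0 CPM in Prkd3-/- iMEF 13a and 5.66 CPM in line 14, against 4.39 to 5.60 CPM in WT pMEFs and at most 0.999 CPM in WT iMEFs. The Olr1 level of line 13a was thus above that of every pMEF library, the highest of which was Prkd3-/- pMEF 14 at 7.20 CPM.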
